A study of Mus musculus with 25 samples.

Results

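Gpx4 encodes glutathione peroxidase 4, and Gpx4-ps2 is an intronless copy of it that GENCODE mouse M21 annotates as a transcribed processed pseudogene. All transcripts that M21 assigns to either gene were described, which gave 9 of the 119215 transcripts in the deposited table, 7 of Gpx4 and 2 of Gpx4-ps2. Earlier results of these data were known when the genes were chosen. The values come from bulk left ventricular mRNA of 25 male mice in 5 groups of 5, kept on their diet for 16 weeks from an age of 8 to 10 weeks. WT CNTL were wild-type mice on control diet with 6% of energy from fat, and GPx4+/- CNTL were heterozygous littermates on the same diet. WT HFHS and GPx4+/- HFHS received a high fat, high sucrose diet with 35.5% of energy from fat, and WT HFHS + Carnosine were wild-type mice on that diet with 80 mM carnosine in the drinking water from week 7. All mice came from a colony crossed back to C57BL6/J. The GPx4+/- mice are heterozygous for a disrupted Gpx4 allele, and which bases that allele lacks is not given in the sources used here. Mice were killed after a fast and an injection of dextrose or saline, and the labels do not say which mouse received which.

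GPx4 is the selenoprotein that reduces lipid hydroperoxides inside membranes, with glutathione as the electron donor, and its loss is the classical trigger of ferroptosis, an iron-dependent form of cell death. A single gene makes cytosolic, mitochondrial and nuclear forms of the enzyme, which share their catalytic part and differ in the amino end. The cytosolic form is the one needed for embryonic survival, the mitochondrial form carries a targeting peptide, and the nuclear form is known from late spermatids, where it takes part in chromatin packing. In all of them a TGA codon is read as selenocysteine in place of a stop.

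The annotation places the 3 forms on 2 first exons. Gpx4-202 (ENSMUST00000105372, 959 bases, 7 exons, chr10:80053488-80056439, plus strand, GRCm38) starts with the somatic first exon. Its annotated start codon at 80053632 opens the mitochondrial form of 197 residues, and the ATG at 80053713, in the same frame and at the very end of exon 1, opens the cytosolic form of 170 residues. Both start codons lie on this transcript, so the 2 forms cannot be told apart by its abundance. The coding part of the exon is shown to make that visible, with both start codons in capitals (chr10:80053632-80053715).

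Gpx4-202 first exon: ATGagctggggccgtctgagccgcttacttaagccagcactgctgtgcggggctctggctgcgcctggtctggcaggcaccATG

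Gpx4-201 (ENSMUST00000097227, 995 bases, 7 exons, chr10:80054037-80056439) starts with the nuclear first exon, which lies in intron 1 of Gpx4-202. Its start codon at 80054049 gives 253 residues. The coding part of this exon, rich in codons for arginine, is shown because it gives the nuclear form its own amino end. Its first part is also in Gpx4-205, and the last 130 bases are in no other Gpx4 transcript (chr10:80054049-80054300, start codon in capitals).

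Gpx4-201 first exon: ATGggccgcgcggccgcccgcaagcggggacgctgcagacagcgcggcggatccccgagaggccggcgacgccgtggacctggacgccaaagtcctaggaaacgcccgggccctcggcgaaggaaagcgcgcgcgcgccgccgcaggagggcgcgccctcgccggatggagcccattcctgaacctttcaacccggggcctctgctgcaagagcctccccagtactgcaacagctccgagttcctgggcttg

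Gpx4-207 (735 bases, 6 exons) is a further protein-coding transcript. It begins in intron 1, 49 bases before exon 2, and runs on through the common exons, with an annotated start at 80054550 that gives 157 residues and keeps the selenocysteine codon. It is called here the other coding form. Gpx4-204 and Gpx4-205 are processed transcripts with no coding sequence in M21. Gpx4-204 (879 bases) joins 2 far-upstream exons, the first of them starting at 80047166, to exon 2 and skips the exon that holds the selenocysteine codon. Gpx4-205 (516 bases) uses the nuclear first exon with a splice donor 130 bases upstream of the one in Gpx4-201. Gpx4-206 (380 bases) and Gpx4-203 (280 bases) retain introns near the end of the gene. For 3 of these the point at which the transcript enters a common exon is shown, in lower case before it and in capitals from there on. The lower-case bases of Gpx4-204 are the end of exon 2, which other forms hold too, so that it is the junction and not these bases that is its own (Gpx4-207, chr10:80054499-80054528, unspliced; Gpx4-205 and Gpx4-204, spliced, with 25 bases on either side).

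Gpx4-207 into exon 2: tttcctgttttacagTGTGCATCCCGCGAT

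Gpx4-205 junction with exon 2: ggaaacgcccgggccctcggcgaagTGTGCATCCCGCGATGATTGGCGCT

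Gpx4-204 junction with exon 4: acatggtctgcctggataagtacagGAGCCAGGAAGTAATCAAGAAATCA

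**Figure D1:**
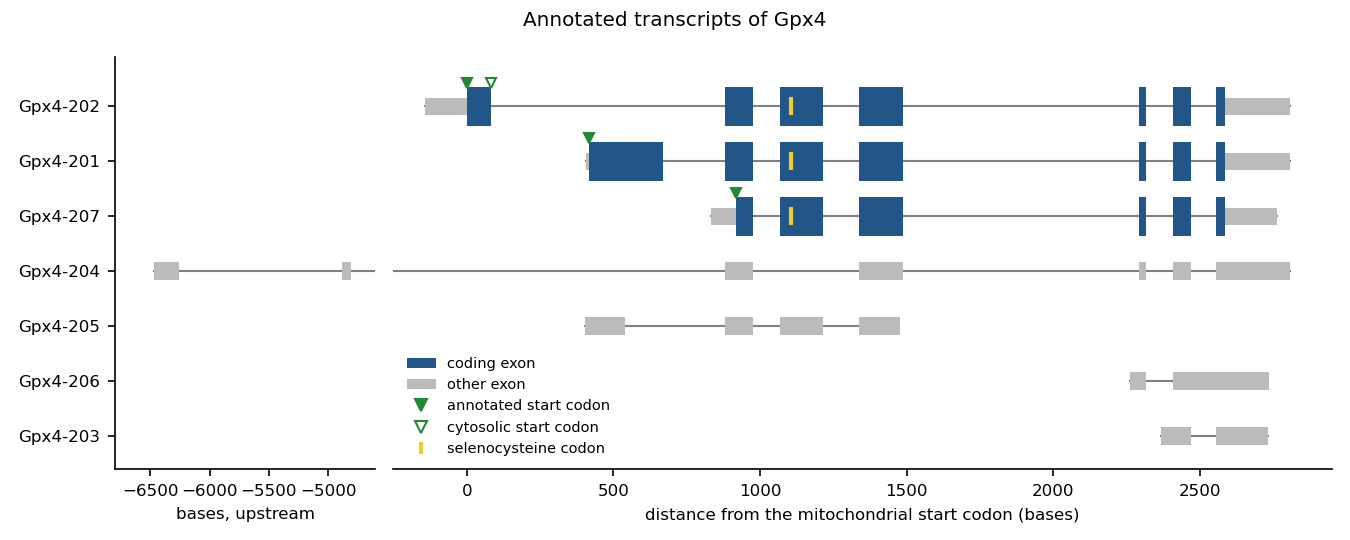
Exons of the 7 annotated Gpx4 transcripts by distance in bases from the mitochondrial start codon, with the far-upstream exons of Gpx4-204 on their own axis to the left. Blue boxes are coding exons, grey boxes other exons, triangles start codons and yellow bars the selenocysteine codon. The coding sequences are seen to differ only at their start, that of the other coding form beginning within a common exon.

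Gpx4-ps2 lies on the same chromosome, far from Gpx4. Gpx4-ps2-202 (782 bases, chr10:45875305-45876086, plus strand) has 762 bases that align to Gpx4-202 with 2 mismatches, and Gpx4-ps2-201 (555 bases, chr10:45875291-45875845) carries the same 2. Counted from 1 at the A of the cytosolic start codon, with the Gpx4 base first, they are C123T in codon 41 and C438T in codon 146. Neither changes the residue, so the pseudogene would encode the 170 residues of cytosolic GPx4 if its TGA were read as selenocysteine and 45 residues if it were a stop. The differing base and, in the first pair, the selenocysteine codon are in capitals (Gpx4-202, spliced, chr10:80054605-80054755 and chr10:80055937-80056088; Gpx4-ps2-202, chr10:45875427-45875486 and chr10:45875742-45875801).

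Gpx4-202, codon 41: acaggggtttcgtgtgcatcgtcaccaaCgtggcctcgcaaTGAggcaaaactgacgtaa

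Gpx4-ps2-202, codon 41: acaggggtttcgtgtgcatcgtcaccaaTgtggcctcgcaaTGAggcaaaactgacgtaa

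Gpx4-202, codon 146: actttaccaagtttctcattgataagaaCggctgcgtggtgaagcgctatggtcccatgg

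Gpx4-ps2-202, codon 146: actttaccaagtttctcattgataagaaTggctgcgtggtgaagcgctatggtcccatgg

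The pseudogene transcript ends in a run of 20 A that is part of the genome, a usual mark of a gene copy made from a reverse-transcribed mRNA (chr10:45876057-45876086).

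Gpx4-ps2-202 end: tagaaatgtgAAAAAAAAAAAAAAAAAAAA

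How much of each transcript is its own bears on every value below, because reads in shared stretches are divided among transcripts by an estimate. Stretches of 31 bases were searched in all 141767 transcripts of M21. Of Gpx4-202, 183 of 929 stretches (19.7%) were in no other transcript, and of Gpx4-201, 158 of 965 (16.4%). The other coding form had 47 of 705 (6.67%) and Gpx4-205 had 30 of 486 (6.17%). Gpx4-204 had the largest number, 318 of 849 (37.5%), most of them from its far-upstream exons and the rest from the junction of exon 2 with exon 4. Of Gpx4-ps2-202, 20 of 752 (2.66%) were in no other transcript, all at the run of A, and of Gpx4-ps2-201 there were 0 of 525. Counting both pseudogene transcripts as 1 gene, 82 of its 766 stretches were in no other gene. The only other gene that shared stretches with Gpx4 was AC122253.3, a processed pseudogene, with 132 of them and at most 0.394 scaled TPM in any mouse.

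Levels are given as scaled TPM, that is TPM, a transcript's share of a library's RNA corrected for transcript length by the authors, and then divided by a median-ratio factor per library. TPM keeps no read depth, so no counting error can be attached to a value. Between 11652 and 12305 genes reached 1 TPM in a library, and mitochondrial transcripts took between 31.3% and 48.7% of the TPM. The scaling follows the study, which used median-ratio normalization on its counts. All 6 ventricular cardiomyocyte markers were abundant, with a summed level between 41630 and 52230 scaled TPM per mouse. Single mice had high sums of 4 atrial markers (30.5 to 7204), 5 hepatocyte markers (1.44 to 1119) and 4 smooth muscle markers (65.8 to 521), and 6 mice with such values were left out together as an alternative. These 6 were a fixed list set by no threshold. They did not hold every GPx4+/- HFHS mouse whose hepatocyte sum lay above all WT HFHS mice (median 13.9 in GPx4+/- HFHS). The hepatocyte markers had higher sums in single GPx4+/- mice, with overlap between genotypes on both diets. Their sum lay between 1.69 and 6.48 in WT CNTL, 2.49 and 1119 in GPx4+/- CNTL, 1.44 and 2.48 in WT HFHS and 1.52 and 95.2 in GPx4+/- HFHS. Of the 4 hepatocyte markers tested, 3 had an unadjusted p under 0.05 over both diets, with median log2 differences between genotypes of 1.77 there, 1.50 on CNTL alone and 2.11 on HFHS alone. The atrial markers had a median of 0.98 between genotypes on CNTL, with sums up to 4565 in WT CNTL, 7204 in GPx4+/- CNTL and 2690 in GPx4+/- HFHS, although the extraction protocol names left ventricle. Their median for diet in GPx4+/- was -1.77, and the smooth muscle markers had a median of 0.88 for diet in WT, with 4 of 4 at unadjusted p under 0.05, of -0.84 for carnosine and of -0.59 for genotype on HFHS. None of these markers was called for genotype, diet or carnosine.

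The transcript that holds the cytosolic and mitochondrial start codons made up 82.5% of the gene's mRNA on average (75.8% to 91.6% over the 25 mice). It was lower in every GPx4+/- mouse than in every WT mouse. In WT CNTL, Gpx4-202 stood at 533, 546, 485, 572 and 589 scaled TPM, and in GPx4+/- CNTL at 232, 240, 198, 327 and 282. The highest heterozygous value lay well below the lowest wild-type value. How many of all transcripts separate in this way was not counted, so the lack of overlap is a description only. In WT HFHS it stood at 581, 566, 654, 532 and 638, and in GPx4+/- HFHS at 299, 269, 298, 323 and 277. The groups did not overlap on this diet either, and the 5 GPx4+/- HFHS mice lay closer together than the 5 on CNTL (coefficient of variation 7.34% against 19.5%). The mean on CNTL was 545 ± 40.0 (SD, n = 5) in WT and 256 ± 49.9 in GPx4+/-, and on HFHS it was 594 ± 50.9 in WT and 293 ± 21.5 in GPx4+/-, so the heterozygous mean was 46.9% of the wild-type mean on CNTL and 49.3% on HFHS. In bulk tissue, fewer cells that express a gene and less of its RNA per cell cannot be told apart.

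Differences were tested with limma on log2(scaled TPM + 0.5), with p-values adjusted by the Benjamini-Hochberg method over all features tested, and a feature with adjusted p under 0.05 is called. The log2 difference of Gpx4-202 between genotypes was -1.11 on CNTL (SE 0.103, adjusted p = 2.64e-05 from limma), -1.02 on HFHS (SE 0.103, adjusted p = 0.000102) and -1.06 over both diets (SE 0.073, adjusted p = 1.73e-07). It was the transcript with the second smallest p of 23328 in each of these comparisons. The call held in all alternatives and with any single mouse left out. Without the 6 mice of high marker values the differences were -1.09, -1.09 and -1.09 in the same order, with adjusted p from limma of 0.00908, 0.00351 and 8.97e-05.

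**Figure D2:**
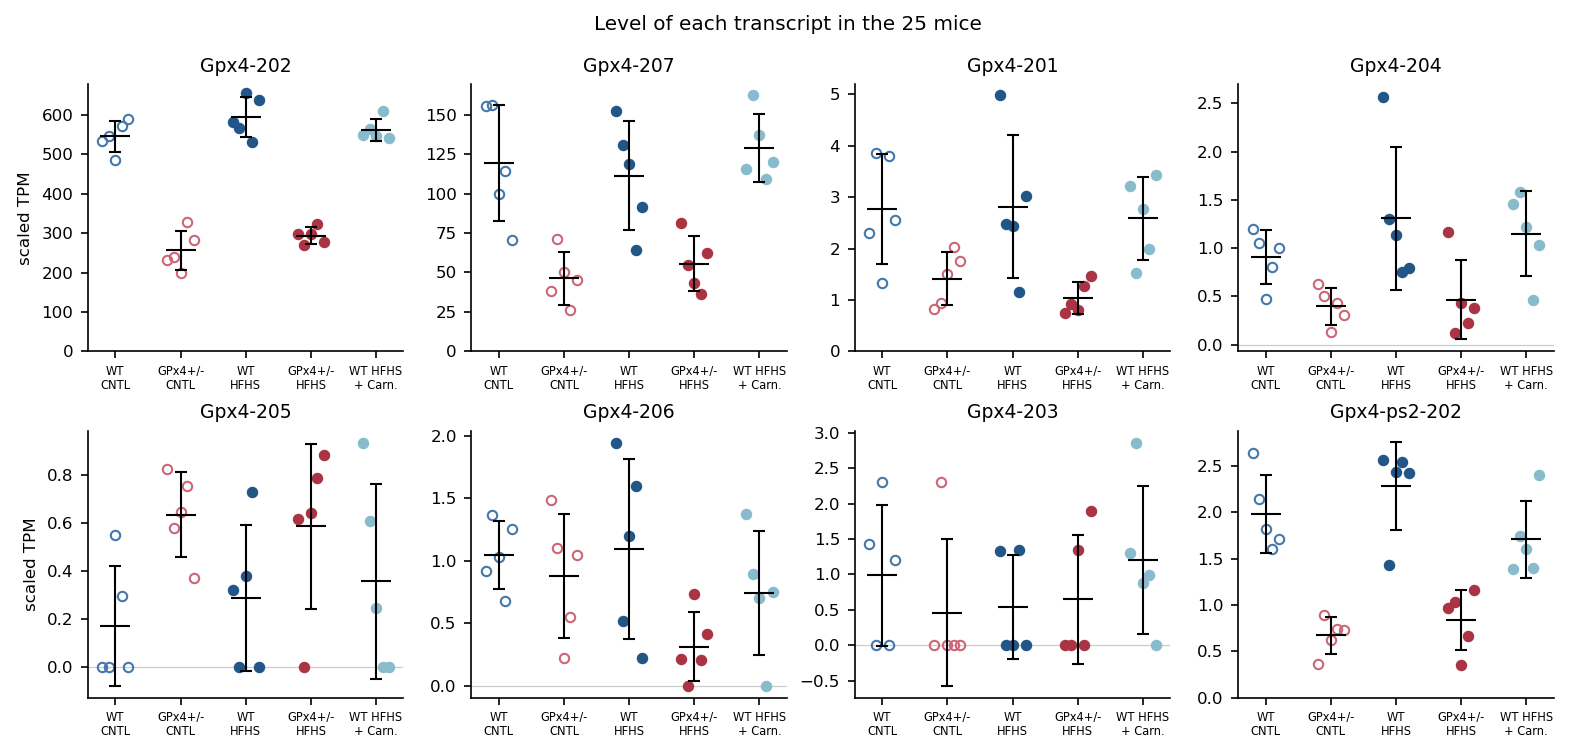
Scaled TPM of 8 transcripts in each of the 25 mice (points), with the group mean and SD (black). Gpx4-202 and Gpx4-ps2-202 separate the genotypes without overlap, Gpx4-207 and Gpx4-201 have lower group means in GPx4+/- with overlap, and Gpx4-205 has higher group means in GPx4+/- on both diets.

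The other coding form was the only further Gpx4 transcript of substantial level, and it varied far more among mice of a group. Gpx4-207 stood at 155, 156, 99.8, 114 and 70.8 scaled TPM in WT CNTL and at 38.0, 71.3, 50.4, 26.2 and 45.2 in GPx4+/- CNTL. These ranges touch, the highest heterozygous mouse lying just above the lowest wild-type mouse. In WT HFHS it stood at 152, 131, 119, 64.0 and 91.6, and in GPx4+/- HFHS at 81.4, 54.5, 43.3, 36.6 and 62.5, again with overlap. The heterozygous mean was 38.7% of the wild-type mean on CNTL and 50.0% on HFHS. Its log2 difference between genotypes was -1.37 on CNTL (SE 0.287, adjusted p = 0.300 from limma), -0.99 on HFHS (SE 0.287, adjusted p = 0.994) and -1.18 over both diets (SE 0.203, adjusted p = 0.0506). None of these was called, the last by a narrow margin, and the alternatives with a minimum of 5 TPM (0.0359), unscaled TPM (0.0384), all 25 mice in the fit (0.00835) or the replicate number as a block (0.00901) gave an adjusted p under 0.05 over both diets. So did the fits without WT CNTL 5, GPx4+/- CNTL 2, WT HFHS 4 or GPx4+/- HFHS 1 (0.0158 to 0.0285).

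Gpx4-207 and Gpx4-202 share 93.2% of the stretches of the shorter transcript, and in 4 of the 5 groups the mouse lowest in one was the highest in the other. In WT CNTL the mouse with the lowest Gpx4-207 (70.8) had the highest Gpx4-202 (589), and in GPx4+/- CNTL the mouse with the lowest Gpx4-207 (26.2) also had the highest Gpx4-202 (327). The exception was WT HFHS, where the same mouse was lowest in both (64.0 and 532). The coefficient of variation of Gpx4-207 was between 16.6% and 36.1% in the 5 groups, against 5.00% to 19.5% for Gpx4-202. Whether the division of shared reads contributes to this spread was not tested.

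The nuclear form was present at a very low level in heart. Gpx4-201 stood at 2.30, 3.86, 1.33, 3.80 and 2.56 scaled TPM in WT CNTL and at 0.821, 0.951, 1.51, 2.03 and 1.77 in GPx4+/- CNTL. In WT HFHS it stood at 4.98, 2.47, 2.44, 1.16 and 3.03, and in GPx4+/- HFHS at 0.755, 0.930, 0.800, 1.27 and 1.47. Wild-type and heterozygous ranges overlapped on both diets, although the heterozygous mean was 51.1% of the wild-type mean on CNTL and 37.1% on HFHS. The log2 difference was -0.75 on CNTL (SE 0.287, adjusted p = 0.962 from limma), -1.02 on HFHS (SE 0.287, adjusted p = 0.994) and -0.88 over both diets (SE 0.203, unadjusted p = 0.000374, adjusted p = 0.726), so no call was made for the nuclear form. Late spermatid markers, of the cell type in which this form is best known, were at or near 0 in these hearts. Tnp2 was listed at 0 in all 25 mice, and Prm1, Prm2 and Tnp1, which encode further chromatin-packing proteins, reached at most 0.134, 0.0932 and 0.117 scaled TPM.

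The remaining Gpx4 transcripts had mean levels under 1 scaled TPM and did not enter the main test. Gpx4-204 averaged 0.907 ± 0.279 (SD, n = 5) in WT and 0.400 ± 0.191 in GPx4+/- on CNTL, and 1.31 ± 0.742 in WT and 0.465 ± 0.409 in GPx4+/- on HFHS, with overlap between genotypes on both diets. Gpx4-206 averaged 1.05 ± 0.273, 0.881 ± 0.495, 1.10 ± 0.720 and 0.314 ± 0.277 in the same order. Gpx4-203 was listed at 0 in many mice and reached 2.85 at most.

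Gpx4-205 was the only one of the 9 transcripts with a higher mean in GPx4+/- than in WT on both diets. It was listed at 0 in 3 WT CNTL mice and stood at 0.552 and 0.296 in the other two, against 0.825, 0.579, 0.647, 0.756 and 0.370 in GPx4+/- CNTL. In WT HFHS it stood at 0.320, 0, 0.380, 0.730 and 0, and in GPx4+/- HFHS at 0.618, 0, 0.642, 0.789 and 0.884. The ranges overlapped on both diets. With no filter on low values its log2 difference over both diets was 0.65 (SE 0.217, unadjusted p = 0.0083, adjusted p = 0.910 from limma), so it was not called.

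The mix of forms was next compared between genotypes. Gpx4-202 made up 81.4%, 83.3%, 83.7% and 83.4% of the Gpx4 sum on average in WT CNTL, GPx4+/- CNTL, WT HFHS and GPx4+/- HFHS, and Gpx4-207 made up 17.7%, 15.5%, 15.5% and 15.8%. The nuclear form stayed under 1% of the sum in every mouse, between 0.192% and 0.669%. As a test, the log2 ratio of each transcript to the rest of its gene was fitted across all genes with several such transcripts. Over both diets the ratio differed between genotypes by 0.09 for Gpx4-202 (95% interval -0.38 to 0.57), by 0.19 for Gpx4-201 (-0.20 to 0.58) and by -0.12 for Gpx4-207 (-0.62 to 0.38), and limma gave an adjusted p of 1.0 for all 3. None of these 3 ratios was called, and their intervals reach from -0.62 to 0.58 on the log2 scale. With no filter on low values 1 ratio of Gpx4 was called over both diets, that of Gpx4-205, a transcript whose level is close to the pseudocount (1.72 higher in GPx4+/-, SE 0.231, adjusted p = 0.0192 from limma). With a pseudocount of 0.1 the Gpx4-201 difference was 0.0003. The Gpx4-202 and Gpx4-207 differences changed sign when GPx4+/- CNTL mouse 4 was left out (-0.04 and 0.02).

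Calls were then counted over the forms. Of the 4 member transcripts with a mean of at least 1 scaled TPM, 1 was called on CNTL (Gpx4-202), where 0.0129% of all transcripts were. On HFHS it was again 1 (Gpx4-202), against 0.0171%, and over both diets 2 (Gpx4-202 and Gpx4-ps2-202), against 0.0257%. Gpx4-ps2-202 reached that mean through the WT groups only, its means being 0.673 in GPx4+/- CNTL and 0.839 in GPx4+/- HFHS, so its place in the count supports nothing. With no filter on low values 2 of the 9 were called over both diets, beside 7 of 95853 transcripts. Of the 3 isoform ratios tested, 0 were called in any of these comparisons, where the background was 0% on CNTL (0 of 17941, with 758 at unadjusted p under 0.05), 0% on HFHS (851) and 0% over both diets (720).

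The pseudogene, at less than 0.5% of the level of its parent gene, was also lower in every GPx4+/- mouse than in every WT mouse of the same diet. Gpx4-ps2-202 stood at 2.64, 2.14, 1.81, 1.60 and 1.72 scaled TPM in WT CNTL and at 0.370, 0.894, 0.623, 0.746 and 0.731 in GPx4+/- CNTL. In WT HFHS it stood at 2.56, 1.44, 2.44, 2.54 and 2.42, and in GPx4+/- HFHS at 0.972, 1.03, 0.352, 0.669 and 1.17. On neither diet did the genotypes overlap, and the heterozygous mean was 33.9% of the wild-type mean on CNTL and 36.8% on HFHS. The share of all transcripts without overlap was not counted here either. Gpx4-ps2-201 was listed at 0 in 24 mice and stood at 1.03 in WT CNTL mouse 2.

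The log2 difference of Gpx4-ps2-202 was -1.08 on CNTL (SE 0.193, adjusted p = 0.0936 from limma), -1.07 on HFHS (SE 0.193, adjusted p = 0.108) and -1.08 over both diets (SE 0.136, adjusted p = 0.00148), called only in the last. Summed over its transcripts, Gpx4-ps2 differed by -1.18 on CNTL (SE 0.198, adjusted p = 0.0188), -1.07 on HFHS (SE 0.198, adjusted p = 0.0516) and -1.13 over both diets (SE 0.140, adjusted p = 0.000281). At the level of gene sums, both members were called on CNTL, where 0.0501% of 11984 genes were, Gpx4 alone on HFHS, where 0.0501% were, and both over both diets, where 0.0584% were. The Gpx4-ps2 sum, like its transcript, entered this test through its level in WT. The Gpx4-ps2 call on CNTL was lost with no filter on low values (0.0708), with only the compared groups in the fit (0.105), with the replicate block (0.0731) and without the 6 mice of high marker values (0.171), and also without any one of WT CNTL 1, WT CNTL 2, GPx4+/- CNTL 1, GPx4+/- CNTL 3 or GPx4+/- CNTL 5, with adjusted p up to 0.0994. On HFHS, by contrast, the Gpx4-ps2 sum was called with unscaled TPM (0.0222), with all 25 mice in the fit (0.0204) and without any one of WT CNTL 2, GPx4+/- CNTL 1, WT HFHS 2 or GPx4+/- HFHS 5 (0.0184 to 0.0462). The call for Gpx4-ps2-202 over both diets was lost without the 6 mice (0.0885).

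**Figure D3:**
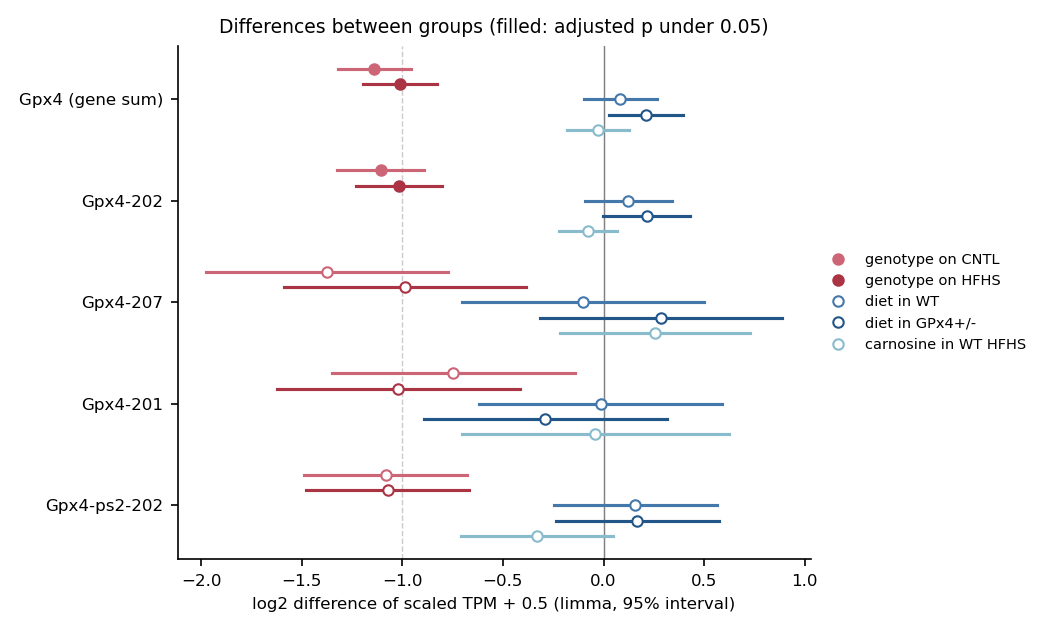
Log2 differences with 95% intervals for the Gpx4 gene sum and the 4 tested transcripts, for genotype on each diet, diet in each genotype and carnosine (solid line at 0, dashed line at -1). The genotype differences on the single diets lie between -1.37 and -0.75, of which those of the Gpx4 sum and Gpx4-202 were called, and the diet and carnosine differences lie between -0.33 (Gpx4-ps2-202 with carnosine) and 0.28 (Gpx4-207 for diet in GPx4+/-) with intervals that include 0, except the Gpx4 sum for diet in GPx4+/-, which has an interval of 0.03 to 0.39.

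Whether the pseudogene moved by the same factor as Gpx4 depended on how low values were treated. The log2 ratio of Gpx4-ps2 to Gpx4, with 0.5 added to both, averaged -8.00 ± 0.315 (SD, n = 5) in WT and -8.03 ± 0.214 in GPx4+/- on CNTL. On HFHS it averaged -8.02 ± 0.314 in WT, -8.08 ± 0.407 in GPx4+/- and -8.32 ± 0.280 in WT with carnosine. Between genotypes it differed by -0.04 on CNTL (two-sided exact permutation p = 0.81), -0.06 on HFHS (p = 0.81) and -0.05 over both diets (p = 0.718), and with carnosine by -0.30 (p = 0.159). All 6 comparisons made of it had an adjusted p of 0.929, where 5 mice against 5 allow an exact permutation p of 0.00794 at the smallest. With 0.1 added in place of 0.5 the difference over both diets was -0.41 (two-sided exact permutation p = 0.0459, before adjustment over the comparisons), and with nothing added the group means were -8.31, -8.88, -8.31 and -8.83 in the order of the first 4 groups. In raw shares, Gpx4-ps2 stood at 0.325%, 0.219%, 0.323%, 0.240% and 0.246% of the Gpx4 level in the 5 groups. Since 670 of the 752 stretches of Gpx4-ps2-202 also occur in Gpx4-202, how much of the pseudogene's level is made of Gpx4 reads was not tested, and a difference in expression of the pseudogene cannot be told apart from a change in such reads.

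**Figure D4:**
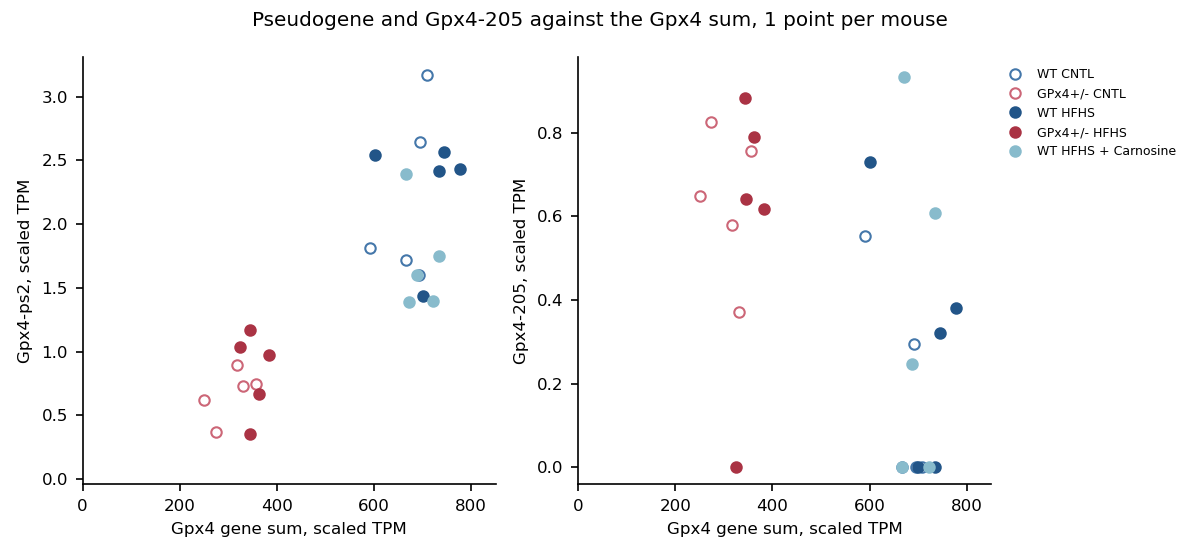
Gpx4-ps2 (left) and Gpx4-205 (right) against the Gpx4 sum, all in scaled TPM on linear axes, with 1 point per mouse coloured by group. The 10 GPx4+/- mice form a cluster of low Gpx4 and low Gpx4-ps2, while Gpx4-205 lies between 0 and 0.934 in mice of either genotype.

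No form of Gpx4 was called for the HFHS diet in either genotype. For Gpx4-202 the log2 difference was 0.12 in WT (95% interval -0.09 to 0.34, adjusted p = 0.700 from limma) and 0.21 in GPx4+/- (-0.00 to 0.43, adjusted p = 0.392). For the gene sum it was 0.08 in WT (-0.10 to 0.27, adjusted p = 0.680) and 0.21 in GPx4+/- (0.03 to 0.39, unadjusted p = 0.0252, adjusted p = 0.194). The interval in GPx4+/- included 0 with unscaled TPM (0.10, -0.11 to 0.32), where the median of all genes was itself at -0.10, without the 6 mice of high marker values (0.17, -0.03 to 0.37) and without any one of GPx4+/- CNTL 1, GPx4+/- CNTL 3 or GPx4+/- HFHS 1 (0.14 to 0.18). In WT the difference of the sum was 0.04 without WT CNTL 3 and 0.14 without WT HFHS 4. The diet effect was not shown to differ between genotypes, with an interaction of 0.13 (-0.13 to 0.38, adjusted p = 0.834). The interaction was 0.02 with unscaled TPM, 0.07 without the 6 mice of high marker values, 0.06 without GPx4+/- CNTL 3 and 0.07 without WT HFHS 4. None of the 2 gene sums, 4 transcripts and 3 ratios was called for diet. The background was 1.18% of gene sums, 0.197% of transcripts and 0% of ratios (0, with 1118 at unadjusted p under 0.05) in WT, and 3.34%, 0.926% and 0.0279% in GPx4+/-. For the interaction it was 0% at each level, with 856 gene sums, 1368 transcripts and 950 ratios at unadjusted p under 0.05.

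Carnosine was likewise without a detected difference in Gpx4. With carnosine Gpx4-202 stood at 547, 564, 545, 609 and 541 scaled TPM, all within the range of the WT HFHS mice without it, and Gpx4-207 stood at 115, 162, 137, 109 and 120. Gpx4-201 stood at 3.22, 1.53, 2.77, 2.00 and 3.44. The log2 difference was -0.08 for Gpx4-202 (95% interval -0.22 to 0.07, adjusted p = 0.972 from limma) and -0.03 for the gene sum (-0.18 to 0.13, adjusted p = 0.978), the latter turning to 0.01 without WT HFHS mouse 3. It was -0.11 without the 6 mice of high marker values, -0.10 with unscaled TPM and -0.09 without WT HFHS mouse 4, and it was called in none of these. Gpx4-ps2 stood at 1.39, 1.75, 1.60, 1.40 and 2.40, where 4 of the 5 WT HFHS mice without carnosine lay above all 5 of these values, and its log2 difference was -0.33 (-0.68 to 0.01, adjusted p = 0.947). No member was called for carnosine at any level, where the background was 0% of gene sums (0, with 505 at unadjusted p under 0.05), 0% of transcripts (997) and 0% of ratios (872).

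In order of Gpx4-202 level the groups ran from WT HFHS (594) over WT HFHS + Carnosine (561), WT CNTL (545) and GPx4+/- HFHS (293) to GPx4+/- CNTL (256). Neighbours in this order had overlapping ranges except at the step from WT CNTL to GPx4+/- HFHS.

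No annotated gene of M21 overlaps Gpx4. Its neighbours on either side are Polr2e, which encodes a subunit shared by the RNA polymerases, and Sbno2, a transcriptional coregulator. Their log2 differences between genotypes over both diets were -0.09 (95% interval -0.20 to 0.03) and 0.02 (-0.11 to 0.15), and limma gave an adjusted p of 1.0 for both. The sequences upstream of the somatic and the nuclear first exons are printed because the called Gpx4-202 starts at one and the nuclear form, which was not called, at the other. CCAAT boxes (CCAAT, or ATTGG on the other strand) and GC boxes (GGGCGG or CCGCCC) are in capitals (RefSeq promoter windows on GRCm38, cut at the exon start, chr10:80053315-80053487 and chr10:80053761-80054034).

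Upstream of the somatic first exon: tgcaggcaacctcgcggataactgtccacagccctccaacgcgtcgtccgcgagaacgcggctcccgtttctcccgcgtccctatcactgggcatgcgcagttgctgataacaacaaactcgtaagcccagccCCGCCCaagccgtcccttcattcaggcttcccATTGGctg

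Upstream of the nuclear first exon: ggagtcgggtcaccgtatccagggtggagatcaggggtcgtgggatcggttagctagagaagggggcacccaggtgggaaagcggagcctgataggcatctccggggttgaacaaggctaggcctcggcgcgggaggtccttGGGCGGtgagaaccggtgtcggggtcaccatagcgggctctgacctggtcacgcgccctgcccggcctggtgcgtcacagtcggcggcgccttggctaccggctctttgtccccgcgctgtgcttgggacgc

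In the full windows of 300 bases the somatic start had 3 CCAAT boxes and 2 GC boxes, and the nuclear start had 0 and 1. Of 32851 RefSeq promoter windows, 37.4% held at least 1 CCAAT box and 35.7% at least 1 GC box, so a match is common.

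The genes of the pathway around GPx4 were counted next. Lists were taken of the other glutathione peroxidases (4 of 7 tested), of selenoprotein synthesis (10 of 10), of glutathione supply (7 of 9), of further lipid peroxide and ferroptosis genes (10 of 11) and of factors known to bind Gpx4 RNA or its promoters (8 of 8). In each of the 3 genotype comparisons 0 of the 39 tested members were called, against 6, 6 and 7 of 11984 genes, so that a count of 0 is near the background (0.0501%, 0.0501% and 0.0584%). Over both diets the list medians of the log2 difference were 0.02, 0.04, -0.03, 0.02 and -0.01 in this order, beside -0.00 over all genes, and 0 members of any list had an unadjusted p under 0.05. The members with the smallest p were Gpx8 (-0.08), a peroxidase of the endoplasmic reticulum, Eefsec (-0.13), the elongation factor for selenocysteine, Gsr (-0.05), which regenerates glutathione, Dhodh (-0.12), which reduces ubiquinone in mitochondria, and Nfyb (-0.11), a subunit of the CCAAT-binding factor NF-Y.

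For diet, 1 of the 39 list members was called in WT (2.56%, beside 1.18% of all genes) and 1 in GPx4+/- (2.56%, beside 3.34%), shares near the background. Chac1, which degrades glutathione, was lower on HFHS in WT, at 4.38 ± 0.569 (SD, n = 5) scaled TPM against 6.61 ± 0.828 on CNTL (log2 difference -0.54, SE 0.113, adjusted p = 0.0256 from limma). Its ranges did not overlap, a description for which the share of all genes was not counted. In GPx4+/- its log2 difference was -0.35, with overlap and no call except with unscaled TPM (adjusted p = 0.0308). Dhodh was lower on HFHS in GPx4+/-, at 10.6 ± 1.63 against 13.1 ± 1.05 (log2 difference -0.31, SE 0.083, adjusted p = 0.0465). That call was lost in 5 of 9 alternatives and with 14 of 20 single mice left out, with adjusted p up to 0.155, and the Chac1 call was lost in 3 of 9 and with 5 of 20, with adjusted p up to 0.12. The members with the smallest p in the other lists, none of them called, were Gpx7 (0.11), Secisbp2l (-0.14), Acsl4 (-0.28) and Crem (-0.36) for diet in WT and Gpx1 (-0.19), Trit1 (-0.36) and Nfyc (-0.18) for diet in GPx4+/-. The Gpx1 difference was -0.0013 without the 6 mice of high marker values and -0.065 without GPx4+/- CNTL 2. For carnosine 0 members of any list were called.

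By Pearson's r of log2 values over the 25 mice, the genes most like Gpx4 were 1190007I07Rik (0.915), Gpx4-ps2 (0.859) and the DNA repair glycosylase Tdg (0.814). This likeness includes the split of the mice into 2 genotypes. 1190007I07Rik and Tdg were themselves called between genotypes over both diets. Their log2 differences were -0.55 (adjusted p = 2.14e-05 from limma) and -0.52 (adjusted p = 1.04e-05). Once each value was taken as its deviation from the group mean, the most alike were Grpel1 (0.906), a co-chaperone of mitochondrial protein import, Mtfr1l (0.899) and Tpi1 (0.886), a glycolytic enzyme, and the r of Gpx4-ps2 with Gpx4 was 0.208. Gpx4-ps2 itself was most like Tdg (0.875), Gpx4 (0.859) and 1190007I07Rik (0.739), and by deviations Leo1 (0.728), Rars (0.723) and Wbp4 (0.709). These r are descriptions, since the values of a mouse come from 1 library and share its scaling.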

How the data were processed

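Libraries from poly(A) RNA of left ventricular tissue were made with a stranded kit and read in pairs, per the labels. The authors deposited TPM per transcript, a unit that corrects for transcript length, sums to a fixed total per library and keeps no depth. The submitters' processing notes name kallisto 0.43.1, sleuth 0.30.0 and GRCm38 without their roles, while the methods of the study describe gene counts from aligned reads, which were not used here. Groups came from the labels and columns from the library names, since the stated column positions disagree with these. The table's transcript lengths equalled those in M21 for all 9 members. Of all listed transcripts, 116772 matched M21 by identifier without version.

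TPM were divided by a median-ratio factor per library (0.864 to 1.16, from 11879 genes), summed per gene where needed, and moved to log2 after adding 0.5, a scale that understates changes of low values. Features whose mean over the 25 mice reached 1 were tested in limma 3.58.1 (R 4.3.3, empirical Bayes with a mean-variance trend). The 20 mice without carnosine entered 1 fit of 4 group means, and carnosine was fitted on the 10 WT HFHS mice. Single ratios were compared by exact permutation (scipy 1.17.1), within diet where both diets were pooled. The fit was tested on simulated data. p-values measure the spread between mice.

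The members and lists were chosen with earlier results of these data known. Named were all member transcripts, the overlapping and neighbouring genes, the 3 genes most alike by r, and from each list the member with the smallest p for genotype over both diets and for each diet comparison, with every member called. Alternatives tried were unscaled TPM, a pseudocount of 0.1, a minimum of 0 or 5, quantile normalization, other sets of mice, the replicate number as a block and each mouse left out. No library equalled another.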

Additional observations from a re-analysis of the deposited data

Results flagged for a closer look

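In 4 of 56 groups of 5 mice a single value stood far from the rest. Chance flags about 1 group in 20 where values are normally spread, a rate that does not apply to groups of which the other 4 values are 0. Gpx4-203 stood at 2.31 scaled TPM in GPx4+/- CNTL mouse 2 and was listed at 0 in the other 4 mice of that group. Gpx4-ps2-201 stood at 1.03 in WT CNTL mouse 2 and was listed at 0 in the others. Gpx4-ps2-202, and with it the Gpx4-ps2 sum, stood at 1.44 in WT HFHS mouse 2 against 2.42 to 2.56 in the other 4, and these count as 2 of the 4 although they are 1 value. The causes were not tested.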

How the results depend on the processing

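The genotype differences of the Gpx4 sum and of Gpx4-202 kept their direction and their call in all alternatives and with each mouse left out. For the Gpx4 sum over both diets the log2 difference was between -1.12 and -1.05 over the alternatives. With 1 mouse left out it was between -1.105 and -1.041. Replicate numbers do not pair the mice, since only 9 of 50 same-numbered pairs correlated above 0.1 (median r -0.00, against 0.02 in 200 other pairs). With the replicate block the Gpx4 sum gave -1.08 over both diets, -1.01 on HFHS and -1.14 on CNTL, all called, and of the member transcripts 3, 1 and 1 were called, in that order.

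Member transcripts called were 2 in place of 1 on CNTL with all 25 mice in the fit, 2 in place of 1 on HFHS with all 25 mice and with unscaled TPM, and over both diets 1 in place of 2 without the 6 mice of high marker values and 3 in place of 2 with all 25 mice, with unscaled TPM and with the replicate block. With 1 mouse left out they were 1 to 2 on CNTL (2 without GPx4+/- HFHS 3), 1 to 2 on HFHS (2 without WT HFHS 2) and 2 to 3 over both diets (3 without WT CNTL 5, GPx4+/- CNTL 2, WT HFHS 4 or GPx4+/- HFHS 1). With no filter on low values 1 isoform ratio was called over both diets. The carnosine difference of the Gpx4 sum was between -0.0863 and 0.0064 with 1 mouse left out, changing sign without WT HFHS 3, and went down to -0.105 over the alternatives.

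The log2 ratio of Gpx4-ps2 to Gpx4 depended on the pseudocount. With 0.1 it differed by -0.41 over both diets (two-sided exact permutation p = 0.0459) and by 0.023 for diet in GPx4+/-, a change of sign. With 1 mouse left out it was between -0.132 and 0.0607 for genotype on CNTL, -0.182 and 0.0859 on HFHS, -0.111 and 0.0231 over both diets, -0.1175 and 0.1003 for diet in WT, -0.139 and 0.105 for diet in GPx4+/- and -0.425 and -0.208 for carnosine, the last with an exact permutation p of 0.0397 without WT HFHS 2 or WT HFHS + Carnosine 5. Its sign for genotype over both diets thus rested on GPx4+/- HFHS 3. Between genotypes over both diets, the ratio to the rest of the gene was between -0.0357 and 0.189 for Gpx4-202 and between -0.222 and 0.0161 for Gpx4-207 with 1 mouse left out. Sbno2 was between -0.0065 and 0.0533, and Gsr gave 0.0022 without the 6 mice. Causes of these shifts were not tested, and a minimum of 5 left Gpx4-201 and Gpx4-ps2 untested.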

Other observations

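Gpx4-205, which starts in the nuclear first exon but splices out of it early, was the single ratio of Gpx4 called in any setting. With no filter on low values its log2 ratio to the rest of Gpx4 was 1.72 higher in GPx4+/- over both diets (SE 0.231, adjusted p = 0.0192 from limma), with 1.96 on CNTL (adjusted p = 0.234) and 1.49 on HFHS (adjusted p = 0.715). In that setting 3 of 85382 ratios were called. Gpx4-205 averaged 0.407 scaled TPM over the 25 mice, beside a pseudocount of 0.5. The part of the pseudocount in this ratio was not tested. The ratio adds the transcript's own difference of 0.65, which was not called (adjusted p = 0.910), to the difference of the rest of the gene. Its share of the Gpx4 sum averaged 0.0272% in WT and 0.213% in GPx4+/- on CNTL, and 0.0426% in WT and 0.164% in GPx4+/- on HFHS.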
